A study of Homo sapiens with 12 samples.

Results

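The genes described here make sterols and fatty acids. All HT-12 v4 probes annotated to 32 listed gene symbols, or to older names of these genes, were taken, without regard to their values. Of the 32 genes, 30 were found on the array with 44 probes, out of 47322 probes in all. FDFT1 and ACSL3 were not analysed here. A probe was tested when it was detected above background on both arrays of at least 1 group, and 36 of the 44 probes passed, as did 17911 of all probes. They measured 28 genes, namely 17 sterol enzymes, 3 regulators (INSIG1, INSIG2 and SREBF1) and 8 fatty acid enzymes. SREBF2, which encodes the transcription factor SREBP-2, and STARD4, a cytosolic sterol carrier, had 1 probe each. Neither was detected on any array, with signals of 7.0 to 27.0 and -12.3 to 15.3. A single undetected probe does not show that the RNA was absent. Of the 28 genes, 27 were detected on all 12 arrays, and FADS2 was detected on 8.

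Cells build cholesterol from acetyl-CoA through mevalonate, squalene and lanosterol, and they build fatty acids from acetyl-CoA and malonyl-CoA. Both branches are driven by the SREBP transcription factors, which are held in the endoplasmic reticulum with SCAP and the INSIG proteins while sterols are plentiful and are released and cleaved when sterols run low. In breast cancer cells these pathways supply membrane lipids for growth.

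RNA of MDA-MB231 cells, an established estrogen receptor negative human breast cancer line, was hybridised to 12 Illumina arrays in 6 groups of 2. DOT1L is the methyltransferase of histone H3 lysine 79, and compounds 1 and 2 inhibit it. Compound 1 was given at 1 and 5 μM and compound 2 at 2 and 10 μM, each for 14 days, and the fifth group received siRNA-1 against DOT1L at 10 nM for 7 days. The control group received the vehicle, 0.1% DMSO, for 14 days. The siRNA-1 cells were also transfected, and no mock-transfected array was used, so DOT1L silencing, transfection and the shorter time cannot be told apart in any comparison with siRNA-1. Per the labels, cells were plated in duplicate and both arrays of a group are biological replicates, so the p-values cover no more than the spread between such a pair.

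The single DOT1L probe gave a signal of 26.5 and 18.3 on the siRNA-1 arrays, against 24.6 and 22.6 on the control arrays, and all 4 lay below the detection limit, so silencing could not be read from these arrays. On each array 34.0% to 36.7% of probes were detected, and replicate arrays correlated at r = 0.991 to 0.994. VIM, CD44, CAV1, MSN and AXL, markers of this mesenchymal-like line, were detected on all 12 arrays, and ESR1, PGR and CDH1 on none. Of the other luminal and epithelial markers, GATA3 was detected on 2 arrays and EPCAM and KRT19 on all 12, although all of these had been listed as low in this line. Among markers of other cells, PTPRC, CD3E and HBB were detected on no array. PECAM1, an endothelial adhesion gene, was detected on 11 arrays, all but control replicate 2 (signal 21.0, against 49.2 on control replicate 1). It was called higher than control in every group except compound 1 at 1 μM. Its log2 fold changes were 1.12 with compound 1 at 5 μM, 1.08 and 1.21 with compound 2 at 2 and 10 μM, and 1.85 with siRNA-1 (limma adjusted p = 0.0297, 0.0321, 0.019 and 0.000316), and its part in the results below was not tested. Levels are given as normalized log2 signal, where 0 is the median of the probes that were detected on all arrays. A fold change is the difference of these levels between groups, and a gene was called changed at an adjusted p below 0.05 over all 17911 probes. These arrays hold bulk RNA, so a change in the share of cells that express a gene and a change in RNA per cell cannot be told apart.

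Among the fatty acid enzymes, SCD stood highest over control with the compounds. SCD encodes stearoyl-CoA desaturase, which places the first double bond into saturated fatty acids to make oleate and palmitoleate. Compound 1 gave SCD levels of 3.43 and 3.57 (1 μM) and of 3.12 and 3.00 (5 μM), and compound 2 gave 3.38 and 3.31 (2 μM) and 3.03 and 3.14 (10 μM). The siRNA-1 arrays gave 2.13 and 2.80 and the control arrays 2.69 and 1.55. All 8 compound arrays thus lay above both control arrays and both siRNA-1 arrays, while the siRNA-1 and control arrays overlapped. SCD was 2.60-fold higher than control with compound 1 at 1 μM (log2 fold change 1.38, SE 0.30, limma adjusted p = 0.0263), where 5.26% of all probes were called, 2.9% as higher and 2.36% as lower. It was 2.34-fold higher with compound 2 at 2 μM (1.22, SE 0.30, adjusted p = 0.047), where 3.62% of all probes were called, 2.22% as higher and 1.41% as lower. At the higher doses the log2 fold changes were 0.94 with compound 1 at 5 μM (adjusted p = 0.122, with 2.17% of probes called, 1.57% higher and 0.592% lower) and 0.96 with compound 2 at 10 μM (adjusted p = 0.0994, with 3.16% of probes called, 2.24% higher and 0.916% lower), so SCD did not pass the test there. All 5 comparisons with control share the same 2 control arrays.

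The size of the SCD difference rested on the control arrays, which differed from each other by 1.14 in SCD, a larger gap than in 99.9% of all tested probes. Without control replicate 1 the log2 fold changes were 1.95 with compound 1 at 1 μM and 1.79 with compound 2 at 2 μM, both called, and SCD was then called at 5 and 10 μM as well. Without control replicate 2 they were 0.81 and 0.65, and neither was called. Leaving out either compound array also ended each of these calls. Calls over all probes likewise rose without control replicate 1 and fell without any other array of the comparison. A gained or lost call is thus not particular to SCD. Of 9 other ways to process the values, 7 kept the SCD call with compound 1 at 1 μM and 5 kept that with compound 2 at 2 μM.

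**Figure D1:**
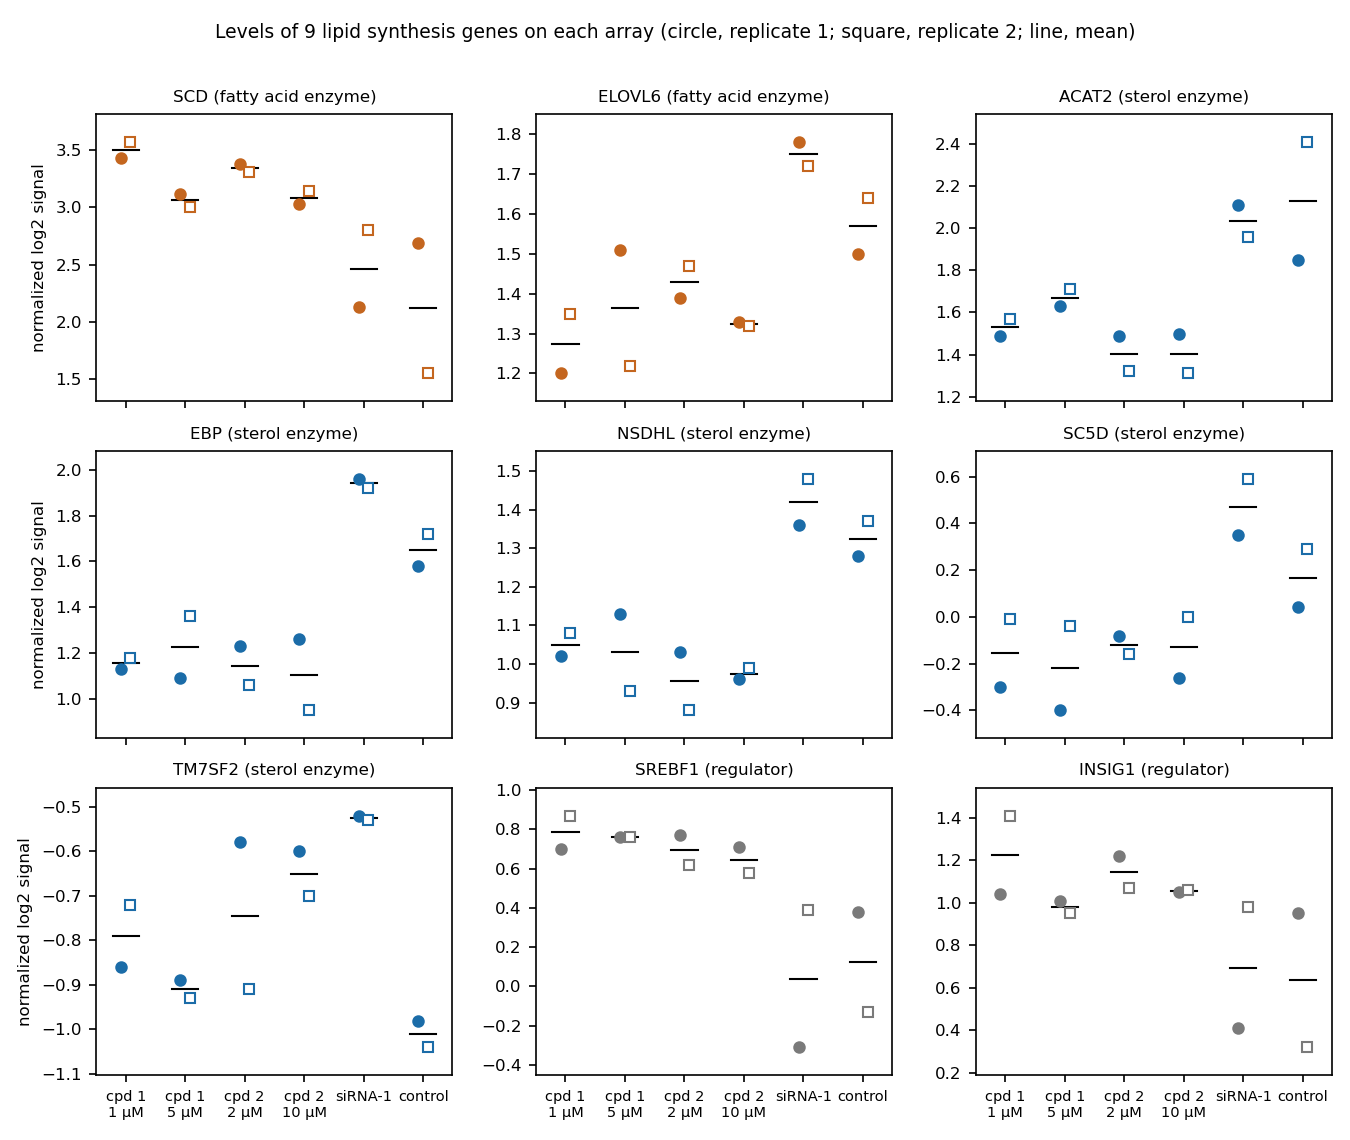
Normalized log2 signal (vertical axis, a scale of its own in each panel) of 9 lipid synthesis genes in the 6 groups, with compounds 1 and 2 written as cpd 1 and cpd 2. Circles and squares are replicates 1 and 2, and lines are the means of 2 arrays. In SCD the 8 compound arrays sit at 3.00 to 3.57, above siRNA-1 and control, and in EBP they sit at 0.95 to 1.36, below both.

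No other fatty acid enzyme was called against control. For FASN, the synthase that makes palmitate, the log2 fold changes were 0.08 and -0.03 for compound 1 (1 and 5 μM), -0.04 and -0.04 for compound 2 (2 and 10 μM) and -0.02 for siRNA-1, each with an SE of 0.16. ACLY, which cleaves citrate to cytosolic acetyl-CoA, lay between -0.17 and 0.05 in these 5 comparisons, and ACACA, which carboxylates acetyl-CoA to malonyl-CoA, between -0.03 and 0.23. For FASN the 95% intervals reached at most 0.42 to the higher side and -0.39 to the lower. FADS1 and FADS2, the front-end desaturases of polyunsaturated fatty acids, lay between -0.03 and 0.28 and between -0.19 and 0.31 (FADS2 was not above background on either control array), and ELOVL5, which elongates such fatty acids, between 0.09 and 0.32. ELOVL6, which elongates palmitate to stearate, was below control with every compound group, at -0.29 and -0.20 with compound 1 and -0.14 and -0.25 with compound 2, none called. Its second probe gave -0.44, -0.47, -0.46 and -0.51 in the same order, with adjusted p of 0.0713, 0.0894, 0.0749 and 0.0568, and all 8 compound arrays lay below the control arrays on that probe. Over the 8 fatty acid enzymes the median log2 fold change was 0.18 and -0.03 with compound 1 at 1 and 5 μM, 0.12 and 0.05 with compound 2 at 2 and 10 μM, and 0.12 with siRNA-1. Over all 17911 probes the medians were -0.06, -0.06, -0.06, -0.04 and -0.05. SCD was thus the 1 of 8 fatty acid enzymes called against control, in 2 of 5 comparisons.

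In the sterol branch ACAT2 stood lowest against control with the compounds. ACAT2 encodes the cytosolic thiolase that joins acetyl-CoA units at the start of the mevalonate pathway. Compound 1 gave ACAT2 levels of 1.49 and 1.57 (1 μM) and of 1.63 and 1.71 (5 μM), and compound 2 gave 1.49 and 1.32 (2 μM) and 1.50 and 1.31 (10 μM). The siRNA-1 arrays gave 2.11 and 1.96 and the control arrays 1.85 and 2.41. The 8 compound arrays lay below all 4 other arrays, and the siRNA-1 arrays lay between the control arrays. ACAT2 was 1.65-fold lower than control with compound 2 at 2 μM (log2 fold change -0.72, SE 0.17, limma adjusted p = 0.0435) and also 1.65-fold lower at 10 μM (-0.73, SE 0.17, adjusted p = 0.0447). With compound 1 it was -0.60 at 1 μM and -0.46 at 5 μM, with adjusted p of 0.0653 and 0.177, and did not pass. The control arrays differed in ACAT2 too, with replicate 1 minus replicate 2 at -0.56, a larger gap than in 94.6% of probes and opposite to that in SCD. Without control replicate 1 ACAT2 was called in all 4 compound groups, at -0.88 and -0.74 with compound 1 and -1.01 with compound 2 at 10 μM. Without control replicate 2 it was called in none, at -0.32 and -0.18 with compound 1 and -0.44 and -0.44 with compound 2. Leaving out either compound array ended the compound 2 calls as well. Calls over all probes moved in the same direction in these fits. Of the 9 other ways to process the values, 4 kept each call.

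Of the enzymes after lanosterol, EBP, NSDHL and SC5D lay below control in the same 4 groups without being called. They are named for their values, and the enzymes beside them in the pathway did not follow (HSD17B7, TM7SF2 and the brighter MSMO1 probe, below). EBP, the sterol isomerase, was at -0.50 and -0.43 for compound 1 (1 and 5 μM) and at -0.51 and -0.55 for compound 2 (2 and 10 μM), with limma adjusted p of 0.0684, 0.145, 0.0732 and 0.0621. NSDHL, a sterol dehydrogenase that takes part in removing methyl groups from lanosterol, was at -0.27, -0.29, -0.37 and -0.35, and SC5D, the sterol desaturase next to last in the pathway, at -0.31, -0.38, -0.29 and -0.29. For each of these 3 genes all 8 compound arrays lay below both control arrays, as they did in 14.7% of all probes. The early enzymes MVK and PMVK, the kinases of mevalonate and phosphomevalonate, also lay below control on all 8 compound arrays, with log2 fold changes of -0.13 to -0.35 and -0.21 to -0.40. FDPS, which makes farnesyl pyrophosphate, ranged from -0.02 to -0.39.

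Other sterol enzymes lay the other way or near control. HMGCS1, the synthase of HMG-CoA, was 0.19, 0.08, 0.22 and 0.19 above control with the compounds, and IDI1, the isopentenyl isomerase, 0.48, 0.37, 0.31 and 0.00. TM7SF2, a sterol reductase that acts on the product of CYP51A1, was 0.22, 0.11, 0.27 and 0.36 above control. LSS (-0.08 to 0.12), CYP51A1 (-0.31 to 0.08), MVD (-0.03 to 0.17), HSD17B7 (-0.06 to 0.24) and DHCR7 (-0.26 to 0.00), which cyclise squalene epoxide, demethylate lanosterol, decarboxylate mevalonate pyrophosphate, reduce a sterol ketone and complete cholesterol, also went uncalled. SQLE, the squalene epoxidase, and MSMO1, a sterol methyl oxidase, had probes that disagreed. The MSMO1 probe with the higher signal was 0.16 to 0.41 above control with the compounds and its second probe was at -0.11 to -0.25, and for SQLE the values were -0.17 to -0.32 and -0.13 to 0.14. The median over the 17 sterol enzymes was -0.13 and -0.02 with compound 1 at 1 and 5 μM and -0.23 and -0.21 with compound 2 at 2 and 10 μM. These medians moved towards 0 or past it, to -0.01, 0.09, -0.10 and -0.17, when each array was centred on all probes, a setting that also moved the median of all probes to 0.06, 0.05, 0.06 and 0.01.

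The 3 tested regulators lay above control with every compound group, and none was called in a single group. SREBF1, which encodes SREBP-1, had levels of 0.70 and 0.87 (1 μM) and of 0.76 and 0.76 (5 μM) with compound 1, and of 0.77 and 0.62 (2 μM) and 0.71 and 0.58 (10 μM) with compound 2. It was -0.31 and 0.39 on the siRNA-1 arrays and 0.38 and -0.13 on the control arrays. The 8 compound arrays lay above the 4 others, with log2 fold changes over control of 0.66, 0.64, 0.57 and 0.52 (limma adjusted p = 0.0939, 0.143, 0.145 and 0.198). The second SREBF1 probe gave 0.69, 0.59, 0.48 and 0.54. INSIG1 and INSIG2, which retain SREBP precursors in the endoplasmic reticulum, were at 0.59, 0.35, 0.51 and 0.42 and at 0.52, 0.23, 0.55 and 0.34. Without control replicate 1 all 3 regulators were called with compound 1 at 1 μM, and INSIG2 was with compound 2 at 2 and 10 μM. Without control replicate 2 none was called. With compound 1 at 5 μM SREBF1 was then at 0.38, INSIG1 at 0.03 and INSIG2 at -0.02. INSIG2 thus no longer lay above control there. Calls over all probes also rose without control replicate 1 and fell without control replicate 2. A second, dimmer INSIG1 probe, detected on 5 arrays, gave 0.38, 0.11, 0.28 and -0.05.

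**Figure D2:**
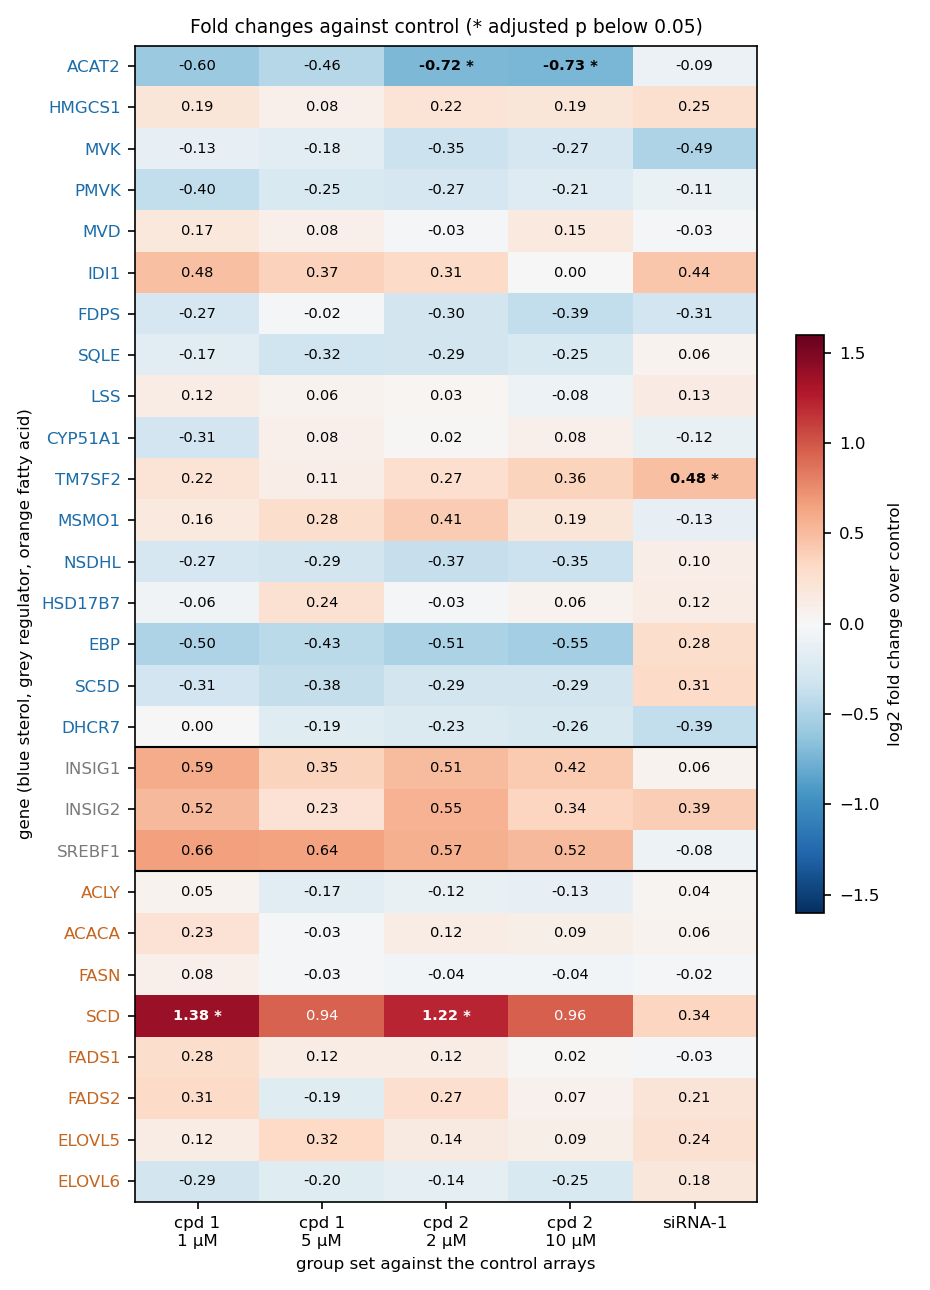
Log2 fold change over control (colour and printed value) of the 28 tested genes (rows, in pathway order within each branch) in the 4 compound groups and with siRNA-1 (columns). Asterisks mark adjusted p below 0.05 and stand at SCD in 2 groups, ACAT2 in 2 groups and TM7SF2 with siRNA-1.

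The mean of the 4 compound groups was also set against control in the same fit, a comparison chosen after the values had been seen. It called 4 of 28 genes (14.3%), against 11.1% of all probes (5.39% higher and 5.71% lower). SCD was higher (log2 fold change 1.12, SE 0.24, limma adjusted p = 0.0144), as was SREBF1 (0.60, SE 0.17, adjusted p = 0.0445). ACAT2 was lower (-0.63, SE 0.14, adjusted p = 0.0163), as was EBP (-0.50, SE 0.11, adjusted p = 0.0209). By the order of the arrays, 5 genes, SCD, SREBF1, INSIG1, TM7SF2 and HMGCS1, had all 8 compound arrays above both control arrays, as had 8.97% of all probes. Another 6, ACAT2, EBP, NSDHL, SC5D, MVK and PMVK, had all 8 below, as had 14.7% of all probes. Without control replicate 2 none of the 28 genes was called and 158 of all probes were, against 6 genes and 2135 probes without control replicate 1. The log2 fold changes were then 0.55 for SCD, 0.34 for SREBF1, -0.35 for ACAT2 and -0.43 for EBP without control replicate 2, and 1.70, 0.86, -0.91 and -0.57 without control replicate 1. SREBF1 was kept by 6 of 9 other ways to process the values, and not with the replicate number as a block (adjusted p = 0.0576). Leaving out any 1 of the 8 compound arrays ended the SREBF1 call and kept the other 3.

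With siRNA-1, 1 of 28 genes was called against control (3.57%), and 10.2% of all probes were, 4.96% as higher and 5.26% as lower. TM7SF2 was higher, at -0.52 and -0.53 on the siRNA-1 arrays against -0.98 and -1.04 on the control arrays, and the arrays did not overlap. The change was 1.40-fold (log2 fold change 0.48, SE 0.13, limma adjusted p = 0.0394). Leaving out any of the 4 arrays kept the value between 0.45 and 0.52 and ended the call. Fewer of all probes were called in each of these fits too. The call was kept by 6 of the 9 other ways to process the values. MVK had the lowest value, at -0.49 (adjusted p = 0.101), followed by DHCR7 at -0.39 and FDPS at -0.31. SCD (0.34, 95% interval -0.31 to 0.99), ACAT2 (-0.09, -0.46 to 0.28) and SREBF1 (-0.08, -0.55 to 0.39) had intervals that covered 0. The SCD value turned on the control arrays here too, being 0.91 and called without control replicate 1 (adjusted p = 0.0384), when INSIG2 was called as well (0.63, adjusted p = 0.0329), and -0.23 without control replicate 2 (adjusted p = 0.609). The medians were 0.06 for the sterol enzymes and 0.12 for the fatty acid enzymes, beside -0.05 for all probes.

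Whether siRNA-1 and the compounds differed was tested directly, with the siRNA-1 arrays set against the mean of the 4 compound groups, a comparison that does not use the control arrays. Of 28 genes, 7 were called (25%), against 19.9% of all probes (9.71% higher and 10.2% lower), so the share lay near that of the array as a whole. Higher with siRNA-1 were 5 (4 sterol enzymes and ELOVL6), and lower were 2 (SCD and SREBF1). The largest difference among the sterol enzymes was in EBP, at 1.96 and 1.92 on the siRNA-1 arrays against 0.95 to 1.36 (median 1.15) on the 8 compound arrays. It was 1.72-fold higher with siRNA-1 (log2 difference 0.78, SE 0.11, limma adjusted p = 0.000763) and remained called without any 1 of the 10 arrays. The EBP level on the control arrays, 1.58 and 1.72, lay between those of siRNA-1 and the compounds.

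SC5D had 0.35 and 0.59 on the siRNA-1 arrays against -0.40 to 0.00 on the compound arrays (difference 0.63, SE 0.13, limma adjusted p = 0.0072). NSDHL had 1.36 and 1.48 against 0.88 to 1.13 (0.42, SE 0.10, adjusted p = 0.0115). For ACAT2 the siRNA-1 arrays at 2.11 and 1.96 stood above the compound arrays at 1.31 to 1.71 (0.54, SE 0.14, adjusted p = 0.0166). In each of these genes no siRNA-1 array overlapped a compound array, and over the 28 genes the compound arrays lay below both siRNA-1 arrays in 6 and above both in 2, as they did in 16.1% and 15.1% of all probes. ELOVL6 had 1.78 and 1.72 against 1.20 to 1.51 (0.40, SE 0.10, adjusted p = 0.0188), and its second probe gave 0.50 (adjusted p = 0.006).

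SCD lay lower with siRNA-1, at 2.13 and 2.80 against 3.00 to 3.57 with the compounds (difference -0.78, SE 0.24, limma adjusted p = 0.0365). SREBF1 lay lower too, at -0.31 and 0.39 against 0.58 to 0.87 (-0.68, SE 0.17, adjusted p = 0.0163), and its second probe gave -0.66 (adjusted p = 0.0217). The siRNA-1 arrays themselves differed too, with replicate 1 minus replicate 2 at -0.66 in SCD and -0.70 in SREBF1, larger gaps than in 98.6% and 99% of probes. Without siRNA-1 replicate 1 the differences were -0.45 in SCD and -0.33 in SREBF1, neither called, and without siRNA-1 replicate 2 they were -1.11 and -1.03, both called. The SCD call also ended when any of 6 of the 8 compound arrays was left out. For INSIG1 the brighter probe gave -0.41 (limma adjusted p = 0.128) and the dimmer probe -0.57. The dimmer probe entered the test only through compound 1 at 1 μM and compound 2 at 2 μM, where both arrays were detected. It was detected on 1 array of compound 1 at 5 μM and on no array of compound 2 at 10 μM, siRNA-1 or control. Its difference is thus given without a p-value or a bound, and is no support for the brighter probe. Without siRNA-1 replicate 1 only EBP and SC5D stayed called, and without siRNA-1 replicate 2 only EBP, SCD and SREBF1. Calls over all probes fell in both fits too, so the loss of calls is not particular to these genes.

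**Figure D3:**
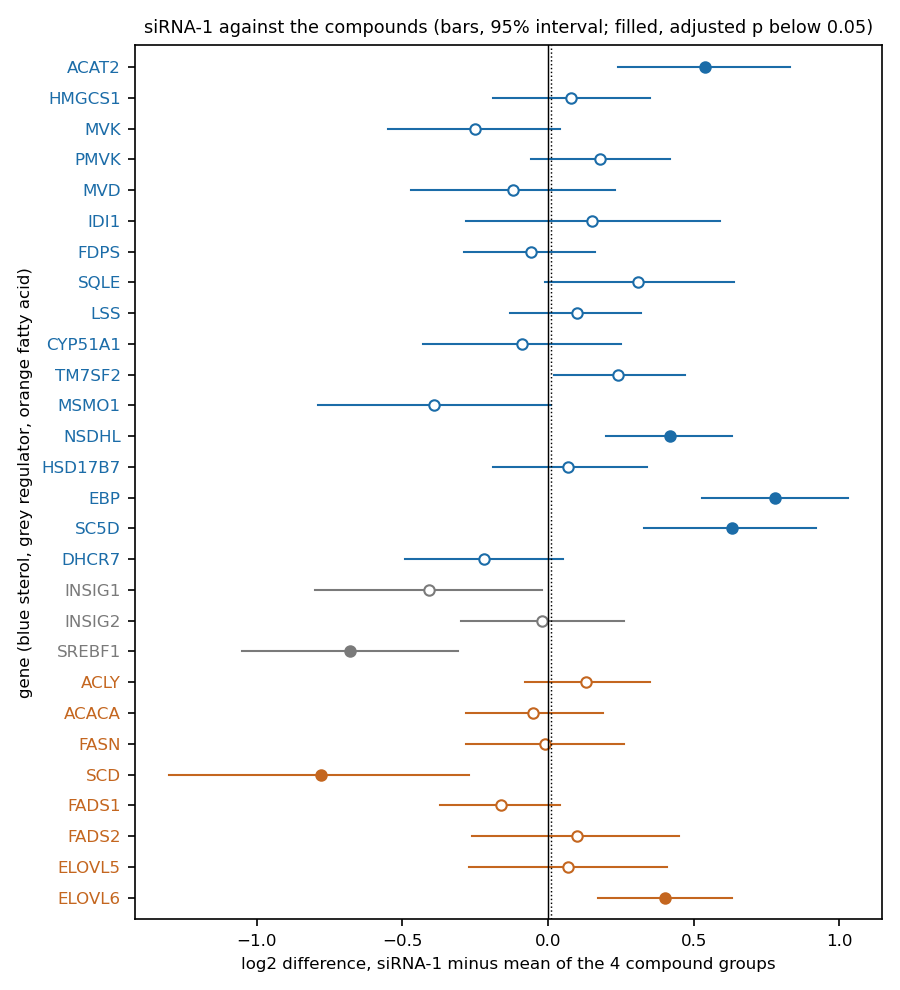
Log2 difference between siRNA-1 and the mean of the 4 compound groups (horizontal axis) for the 28 genes, with 95% intervals from the limma fit. Filled points passed an adjusted p of 0.05, the dotted line is the median of all probes (0.01), and EBP (0.78) and SCD (-0.78) lie at the ends.

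Of the 8 genes called in these comparisons, the starts of 5 that moved in either direction are shown, because SREBP works at promoters together with the CCAAT-binding factor NF-Y. The promoter windows came from RefSeq (GRCh38.p14) and ran from 250 bases before to 50 bases after a gene's start, and 25 of the 28 tested genes had 1 or more, 35 windows in all. CCAAT was searched on both strands, where the reverse strand reads ATTGG. It was present in 15 of 20 windows of sterol enzymes, 7 of 11 windows of fatty acid enzymes and 1 of 4 windows of regulators, against 34.6% of all 35116 windows, a description with no test, since windows of 1 gene can overlap. The sterol regulatory element TCACNCCAC was found in 0 of the 35 windows and in 1.13% of all windows, and the E-box CACGTG in 5 of the 35 and in 7.26% of all. The GC box GGGCGG was in 30 of the 35 and in 45% of all, so CCAAT was not the only motif more frequent here. All windows include those of genes that were not tested. A match is only a run of letters and no match says only that these letters were not in the window. Below, the 250 bases before the start are written 5′ to 3′ on the strand of the gene, with CCAAT or ATTGG in capitals. They lie at chr10:100346983-100347232 (plus strand) for SCD, chrX:48521558-48521807 (plus) for EBP, chrX:152830813-152831062 (plus) for NSDHL, chr11:65111622-65111871 (plus) for TM7SF2 and chr17:17836987-17837236 (minus) for SREBF1.
SCD: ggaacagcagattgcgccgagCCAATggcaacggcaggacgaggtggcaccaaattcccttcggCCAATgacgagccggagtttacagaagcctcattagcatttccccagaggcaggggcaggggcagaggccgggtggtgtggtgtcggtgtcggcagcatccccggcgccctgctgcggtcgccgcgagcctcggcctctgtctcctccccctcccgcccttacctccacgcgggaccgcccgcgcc
EBP: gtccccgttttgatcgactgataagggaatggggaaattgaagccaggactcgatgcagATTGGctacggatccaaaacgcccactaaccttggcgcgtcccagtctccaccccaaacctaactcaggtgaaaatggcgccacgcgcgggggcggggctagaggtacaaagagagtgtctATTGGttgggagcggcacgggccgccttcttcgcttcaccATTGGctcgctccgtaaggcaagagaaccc
NSDHL: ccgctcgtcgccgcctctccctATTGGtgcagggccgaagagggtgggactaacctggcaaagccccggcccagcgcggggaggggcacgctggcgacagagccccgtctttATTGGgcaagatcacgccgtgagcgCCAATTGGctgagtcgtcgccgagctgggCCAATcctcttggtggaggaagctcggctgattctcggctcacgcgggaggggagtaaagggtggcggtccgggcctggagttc
TM7SF2: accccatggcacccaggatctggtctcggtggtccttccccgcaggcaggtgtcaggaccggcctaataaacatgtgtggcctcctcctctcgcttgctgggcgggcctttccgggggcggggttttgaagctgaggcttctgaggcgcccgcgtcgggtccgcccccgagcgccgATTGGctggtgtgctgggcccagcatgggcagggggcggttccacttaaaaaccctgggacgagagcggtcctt
SREBF1: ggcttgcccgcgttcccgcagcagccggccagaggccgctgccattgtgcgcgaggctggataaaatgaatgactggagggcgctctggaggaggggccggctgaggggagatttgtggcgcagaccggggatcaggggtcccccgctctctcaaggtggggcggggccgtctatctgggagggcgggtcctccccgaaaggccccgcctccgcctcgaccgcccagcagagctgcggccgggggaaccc
EBP had 3 matches, all as ATTGG, and NSDHL had 5, of which a pair overlapped. Both genes were higher with siRNA-1 than with the compounds, and neither was called between siRNA-1 and control. SCD, which was lower with siRNA-1 than with the compounds, had 2 matches, TM7SF2 had 1 and SREBF1 had 0. The other called genes, SC5D, ELOVL6 and ACAT2, were also higher with siRNA-1 than with the compounds. SC5D had 2 windows with 1 match each, both of which also held CACGTG. ELOVL6 had 1 window with 0 matches, and ACAT2 had no window. Genes with 0 matches thus lay in both directions, and match number was not tested.

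The doses of each compound were compared with each other. Neither comparison called any of the 28 genes or any of the 17911 probes (0% of probes), by limma at an adjusted p of 0.05. At an unadjusted p below 0.05, 1 of 28 genes and 1256 probes (7.01%) differed between 5 and 1 μM of compound 1, and 0 genes and 562 probes (3.14%) between 10 and 2 μM of compound 2. The 1 gene was FADS2, a dim probe, at -0.50 (95% interval -0.95 to -0.05, adjusted p = 0.682). SCD had differences of -0.44 (95% interval -1.09 to 0.21) with compound 1 and -0.27 (-0.92 to 0.39) with compound 2. For ACAT2 they were 0.14 (-0.24 to 0.51) and 0.00 (-0.38 to 0.37), and for EBP 0.07 (-0.25 to 0.39) and -0.04 (-0.36 to 0.28). On both arrays at 5 μM, 6 of the 8 fatty acid enzymes lay below both arrays at 1 μM, as did 19.8% of all probes, while none lay above. At 10 μM 4 of 8 lay below both arrays at 2 μM, as did 10.5% of all probes. Of the 17 sterol enzymes, 5 lay above (18.8% of all probes) and 3 below at 5 μM, and 0 above (16.2%) and 2 below at 10 μM. The medians of the fatty acid enzymes were -0.19 and -0.08, beside 0.00 and 0.02 over all probes, and those of the sterol enzymes were -0.05 and 0.00. The compounds were not compared with each other, since no dose was shared.

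**Figure D4:**
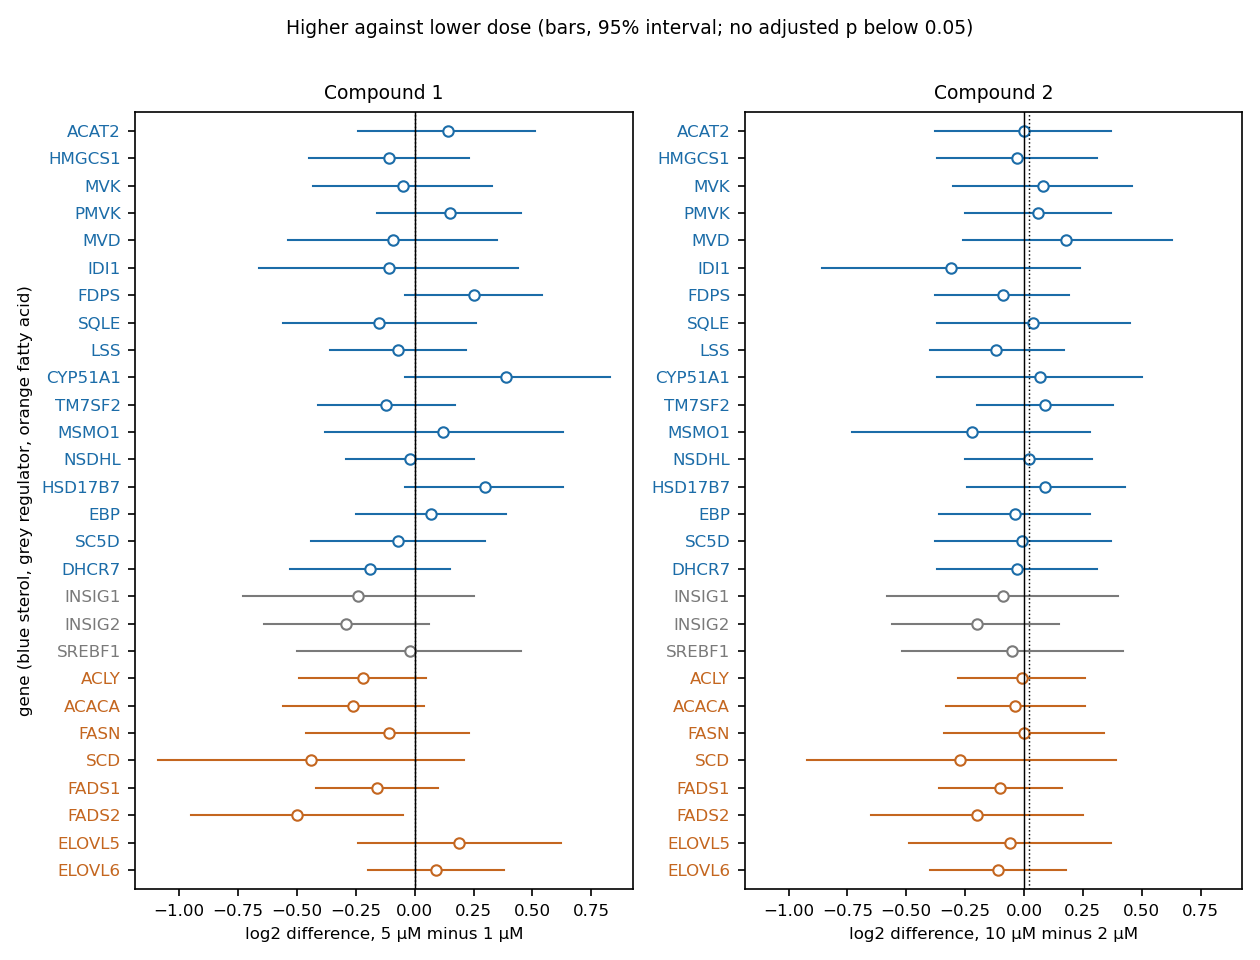
Log2 difference of the higher from the lower dose (horizontal axis) for the 28 genes, for compound 1 (5 against 1 μM) and compound 2 (10 against 2 μM), with 95% intervals. All points are open because none passed the test, and the dotted lines are the medians of all probes (0.00 and 0.02).

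Genes of the same pathways outside the 32 were counted from a list of 48, of which 38 had a probe and 29 were tested. The list was drawn up with earlier results of these data known, so its shares are a description and no test. Against control, compound 1 had 2 higher and 1 lower at 1 μM and 1 higher at 5 μM, compound 2 had 1 higher and 1 lower at 2 μM and again 1 higher and 1 lower at 10 μM, and siRNA-1 had 2 higher and 3 lower. These were 10.3%, 3.45%, 6.9%, 6.9% and 17.2% of the 29, against 5.26%, 2.17%, 3.62%, 3.16% and 10.2% of all probes, and they fell on 6 genes. FABP5, a cytosolic fatty acid carrier, was lower in 4 of the 5 comparisons, at -0.84 with compound 1 at 1 μM, -0.81 and -0.73 with compound 2 at 2 and 10 μM and -0.83 with siRNA-1 (limma adjusted p = 0.0196, 0.0297, 0.04 and 0.00834), and at -0.70 without passing with compound 1 at 5 μM. All 8 compound arrays (0.79 to 1.10) and both siRNA-1 arrays (0.90 and 0.77) lay below the control arrays (1.41 and 1.92). The control arrays thus differed in FABP5 too, and the calls of genes on this list were not examined without single arrays. LPIN1, a phosphatidate phosphatase of triglyceride synthesis, was higher in 3 comparisons, by 0.51 with compound 1 at 1 μM, by 0.48 with compound 2 at 2 μM and by 0.50 with siRNA-1 (adjusted p = 0.0248, 0.0381 and 0.0128).

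MLXIPL, which encodes the carbohydrate-responsive factor ChREBP, was higher by 0.72 and 0.74 with compound 1 at 1 and 5 μM and by 0.80 with compound 2 at 10 μM (limma adjusted p = 0.0303, 0.0399 and 0.0248). Its second probe was not called against control, at 0.10, 0.06 and 0.13 in these groups, so the probes disagreed. The called probe was detected on only 1 of the 2 control arrays (levels -2.41 and -2.89), so its fold changes rest partly on a background signal. With siRNA-1 both probes were lower than with the compounds (-0.59 and -0.36, adjusted p = 0.00758 and 0.0432). With siRNA-1, ACACB, the mitochondrial acetyl-CoA carboxylase, was at least 1.86-fold higher than control (adjusted p = 0.00611), a bound against the lowest detected level, since the probe was not well above background on either control array. NPC1, which moves cholesterol out of lysosomes, was lower than control by 0.55 on the log2 scale, at 1.05 on both siRNA-1 arrays against 1.70 and 1.50 on the control arrays (adjusted p = 0.0139). MID1IP1, a partner of acetyl-CoA carboxylase, had a log2 fold change of -0.56 with siRNA-1 (adjusted p = 0.0268). NPC1 also differed between siRNA-1 and the compounds, by -0.96 (SE 0.10, adjusted p = 5.25e-05), with the 8 compound arrays at 1.92 to 2.09, above both control arrays. SCAP and the proteases MBTPS1 and MBTPS2, which carry and cleave SREBP, were called in none of the 5 comparisons with control, with log2 fold changes of -0.15 to -0.01 for SCAP, -0.04 to 0.19 for MBTPS1 and -0.09 to 0.14 for MBTPS2.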

How the data were processed

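Total RNA of MDA-MB231 cells was hybridised to 12 arrays (Illumina HT-12 v4), 2 per group. The intensity values deposited by the authors are linear bead signals from BeadStudio (version not given in the sources used here), background-subtracted and not normalized. The detection p-values deposited beside them, 1 per probe and array, stood in another line order than the signals (rank correlation -0.0041 to 0.0029) and were assigned within each array by rank. The log2 values deposited by the authors in the series matrix hold the logarithm of each signal (anything under 1 was raised to 1) minus the array's median, and served as an alternative. In them the replicate columns of compound 2 at 10 μM were exchanged. Of 47324 lines, 2 with empty cells were left out.

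Signals were corrected with normexp in limma 3.58.1 (R 4.3.3, offset 16), and log2-transformed, and from each array the median was subtracted of the 11806 probes whose detection p was under 0.01 on every array. A probe stayed in when its detection p was under 0.05 on each array of 1 or more groups. Group means were fitted by limma over the 12 arrays together (degrees of freedom: 6 residual, 5.59 prior), and p-values were adjusted by Benjamini-Hochberg over 17911 probes within each comparison. Each gene was represented by its tested probe of highest mean. Symbols came from the array annotation, updated by Entrez identifier. All 32 genes were accounted for, with full statistics for those called in any comparison, and of the wider pathway list those called most often against control were named. FADS2 (dose), the genes with non-overlapping arrays and near-threshold genes were named after their values were seen. The genes and lists were chosen with earlier results of these data known. In a simulation of compound 1 at 1 μM against control on 17911 probes, 92% of 112 probes changed by 1 on the log2 scale and 100% of 88 changed by 2 were called. It drew independent normal noise of the fitted spread around 1 mean per probe. It held no difference between whole control arrays, so these shares need not hold for the real arrays. Promoter motifs were counted with Python 3.11.15. Alternatives were no background correction, other centring, quantile normalization, other detection filters, the series matrix, a replicate block, fits to the compared arrays only, the mean over probes and leaving out each array.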

Additional observations from a re-analysis of the deposited data

How the results depend on the processing

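No called value changed sign, and the causes of the changes below were not tested. Branch medians are given as sterol and fatty acid enzymes. Centring on all probes gave sterol medians of -0.01 and 0.09 with compound 1 at 1 and 5 μM, -0.10 with compound 2 at 2 μM, -0.08 between the doses of compound 2 and -0.07 for the mean of the compounds, and fatty acid medians of 0.30, 0.08, 0.25, -0.15 and 0.21 in the same comparisons. It called 3 of the 28 genes with compound 1 at 1 μM (SCD, SREBF1 and INSIG2) and 0 with compound 2 at 10 μM. Over all probes it moved the share of higher calls to 87.7%, 91.2%, 92.6%, 86.2% and 82.9% in the 4 compound groups and their mean, where it was 55.1%, 72.7%, 61.2%, 71% and 48.6%, and to 35.2% for siRNA-1 against the compounds, where it was 48.7%. The series matrix gave shares of 89.5%, 81.5%, 88.2%, 93.5% and 80.7%, and 61.9% for siRNA-1 against control, where it was 48.5%. It gave fatty acid medians of 0.26 with compound 1 at 1 μM, 0.13 with compound 2 at 10 μM, 0.21 with siRNA-1 and -0.31 between the doses of compound 1, sterol medians of 0.15 with siRNA-1 and -0.18 between the doses of compound 1, and calls of 0 with compound 2 at both doses and siRNA-1 and 1 for the mean of the compounds. Quantile normalization gave a fatty acid median of 0.19 with siRNA-1, and the mean over probes a sterol median of -0.08 with compound 2 at 10 μM. Detection on all arrays called 3 genes with compound 1 at 1 μM and 2 with compound 2 at 10 μM, and no detection filter called 0 with siRNA-1. Fits to the compared arrays only called 0 in each comparison of 1 group with control, and signals below 1 set to 1 called 0 with compound 1 at 1 μM and compound 2 at 2 and 10 μM.

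The replicate numbers did not pair the arrays (correlations of -0.38 to 0.21 over 15 pairs of groups, 2 above 0.1). With the replicate block 0 genes were called with compound 2 at 2 and 10 μM, where ACAT2 had limma adjusted p of 0.0582 and 0.0594, and 1 with compound 1 at 1 μM and 1 with siRNA-1. For the mean of the compounds 3 were called, without SREBF1.

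Leaving out each array gave ranges as follows. With compound 1 at 1 μM the sterol median lay between -0.16 and -0.10, the fatty acid median between 0.10 and 0.19 and the calls between 0 and 5. At 5 μM these were -0.13 to -0.01, -0.08 to 0.02 and 0 to 2. With compound 2 at 2 μM they were -0.29 to 0.02, 0.05 to 0.15 and 0 to 3, and at 10 μM -0.26 to -0.10, -0.02 to 0.02 and 0 to 3. With siRNA-1 they were 0.01 to 0.16, -0.02 to 0.17 and 0 to 2. Between doses they were -0.05 to 0.08 and -0.25 to -0.14 for compound 1 and -0.07 to 0.08 and -0.13 to -0.08 for compound 2, with 0 calls. For siRNA-1 against the compounds they were 0.04 to 0.24, -0.16 to 0.11 and 2 to 7, and for the mean of the compounds -0.23 to -0.11, 0.06 to 0.12 and 0 to 6. The zeros came without control replicate 2 and, in single-group comparisons, also without a treated array. In the comparisons with control, calls over all probes fell in those fits as well.

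With 2 arrays a group the median 95% half-width of a log2 fold change was 0.34, before adjustment over all probes. Smaller differences were mostly not detectable. Larger ones could also go uncalled after the adjustment, as did SCD at 0.96 with compound 2 at 10 μM. Signals near background, as in FADS2, are compressed by the offset.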

Other observations

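Some of the tested genes differed between the 2 arrays of a group by more than most probes did. On control replicate 1, compared with control replicate 2, SCD lay 1.14 higher on the log2 scale, IDI1 0.72, INSIG1 0.63, SREBF1 0.51, INSIG2 0.49 and MSMO1 0.49. These gaps exceeded those of 99.9%, 98.1%, 96.7%, 92.3%, 90.9% and 90.9% of the tested probes. ACAT2 lay the other way, with -0.56. On the siRNA-1 arrays replicate 1 minus replicate 2 was -0.72 in CYP51A1, -0.70 in SREBF1, -0.66 in SCD, -0.57 in INSIG1, -0.53 in FASN, -0.48 in HMGCS1 and -0.48 in MSMO1, and these gaps exceeded those of 94.7% to 99.1% of probes. MVK lay the other way, with 0.45. EBP, NSDHL and TM7SF2 had gaps of at most 0.14 in size in both groups. On the control arrays the gap was 0.03 in HMGCS1, 0.01 in FDPS, 0.03 in DHCR7, 0.07 in LSS and -0.09 in FASN. The larger gaps thus did not run through the whole list. Within the compound groups the gap in SCD was at most 0.13. The genes were picked here for their gaps, and no test was made.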
